A study of Bos taurus with 6 samples.

Results

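T, NK and B lymphocyte genes were followed in RNA from the endometrium, or uterine lining, of cattle (Bos taurus). The set was chosen by name, with earlier results of these data known. It held 34 genes out of 34733 named genes in the files. They comprised 24 genes of T and natural killer (NK) cells and 10 of B and plasma cells. All 34 were listed, and no filter on low values was applied to them. The study sorted side population (SP) cells, which pump out the DNA dye Hoechst, from main population (MP) cells, which keep it, with 3 libraries of each. Per the labels' protocols, healthy uteri in the luteal phase came from slaughterhouses, the luminal epithelium was removed before collagenase digestion, and propidium iodide served to leave out dead cells. Verapamil, which blocks the dye pump, was used alongside. The breed, the age and the number of animals are not given in the labels, and neither is any antibody gate against leukocytes. The labels do not tie the replicates to different animals. The p-values therefore rest on the spread between these libraries alone, which may be technical.

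T cells recognise antigen through a receptor that signals through the CD3 chains and the zeta chain, helped by the coreceptors CD4 or CD8 and by the kinases LCK and ZAP70. Cytotoxic T cells and NK cells kill through perforin and granzymes, and B cells signal through CD79A and CD79B before they mature into antibody-secreting plasma cells. The endometrium normally holds such cells, and their number and state change over the cycle and in pregnancy.

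The files give FPKM (a fragment count set relative to transcript length and library size) and no counts. Low values put the depth of SP replicates 2 and 3 at 1.6 and 1.82 times that of SP replicate 1, and that of MP replicates 1 to 3 at 2.33, 3.18 and 1.99 times, so all SP libraries were less deep than any MP library. The share of all named genes above 0 FPKM was nevertheless alike, at 48.3% to 52.3% in SP and 48.9% to 51.3% in MP. Other cell types moved with the populations. The summed level of 10 stromal fibroblast markers was 279 to 467 FPKM in SP and 2889 to 11010 FPKM in MP, although the preparation is labelled stromal, and that of 10 endothelial markers was 1208 to 1811 FPKM in SP and 116 to 712 FPKM in MP. No marker of either list was at 0 in any library. The MP columns alone carry the word micro in the file headers, and whatever it marks cannot be told apart from the population.

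Most lymphocyte genes were at low levels in SP. The 34 genes summed to 3.22, 5.37 and 12.1 FPKM in SP replicates 1 to 3 and to 118, 260 and 436 FPKM in MP replicates 1 to 3. Much of the MP sums came from GZMB, at 52.2, 162 and 223 FPKM, and JCHAIN, at 18.7, 3.50 and 144 FPKM. The sums therefore do not stand for all 34 genes alike. Medians over the 34 genes ranged from 0.0114 to 0.0627 FPKM across the SP libraries and from 0.473 to 1.48 FPKM across the MP libraries. Above 0 FPKM were 17, 18 and 23 of the 34 genes in the SP libraries and 30, 31 and 28 in the MP libraries. Over all named genes the share above 0 FPKM was 48.3%, 49.7% and 52.3% in SP and 50.6%, 51.3% and 48.9% in MP. Beside that share the SP counts were not low, and the MP counts were high. At 1 FPKM or more there were 0, 2 and 4 members in SP, against 13, 19 and 12 in MP. The counts did not overlap between the populations at these levels, and the deepest SP library listed more members than the shallowest. Shares of all named genes at 0.1 FPKM or more and at 1 FPKM or more were not taken. Whether the non-overlap there is particular to the members was therefore not tested. The part of depth in these counts was not tested.

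**Figure D1:**
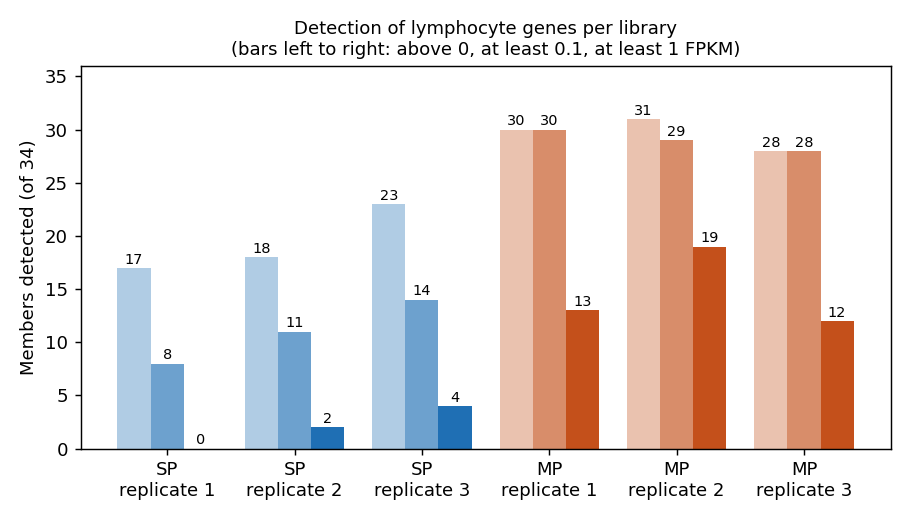
Number of the 34 lymphocyte genes detected in each library. Blue bars are SP and orange bars MP; in each group of bars the left counts genes above 0 FPKM, the middle at least 0.1 FPKM and the right at least 1 FPKM. At least 0.1 FPKM was reached by 8, 11 and 14 genes in SP and by 30, 29 and 28 in MP. The shares of all named genes at 0.1 and at 1 FPKM were not taken.

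In SP, 44 of the 102 values were listed at 0, against 13 in MP. Zeros in SP were no more frequent than over all named genes, of which 48.3% to 52.3% were above 0 FPKM there. Listed at 0 in all 3 SP libraries were 8 genes: CTLA4, CD8B, GZMA, KLRK1, MS4A1, PAX5, FCRL1 and POU2AF1. Over all tested genes, which leave out PAX5, 6.8% were at 0 in all SP libraries. PAX5, the transcription factor that fixes the B cell fate, was at 0 in every library and was not tested. Under 1 FPKM in every SP library were 30 members, and only CD247, FOXP3, GZMB and JCHAIN reached 1 FPKM in any SP library, the highest being 3.66 FPKM for JCHAIN.

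**Figure D2:**
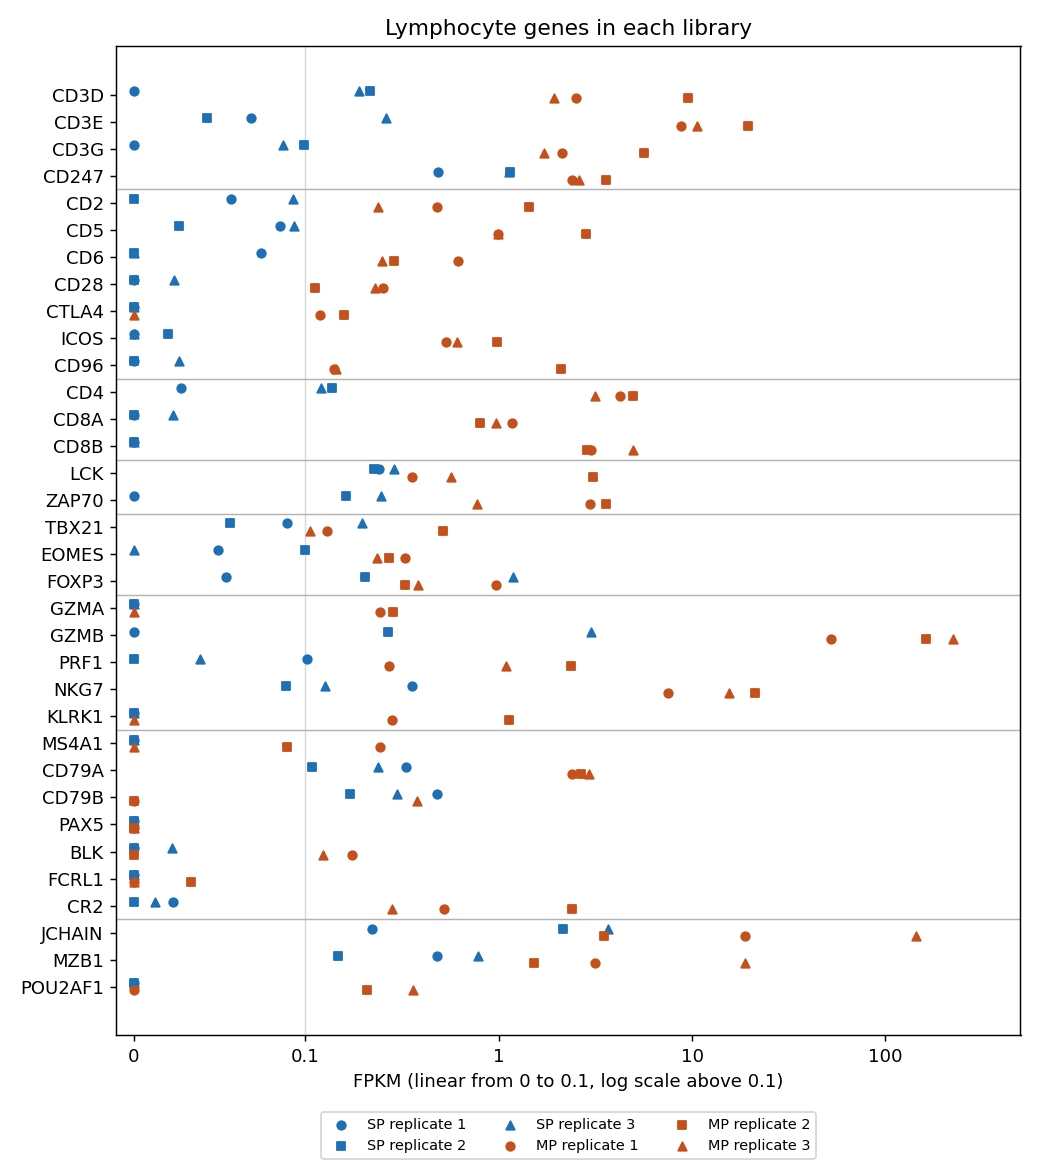
FPKM of each lymphocyte gene in the 6 libraries, blue for SP and orange for MP, with circles, squares and triangles for replicates 1, 2 and 3; the axis is linear up to 0.1 FPKM and logarithmic above. Grey lines part the roles, from the CD3 chains at the top to plasma cell genes at the bottom. In 22 genes all blue points lie left of all orange points.

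The populations were compared by limma, fitted to log2(FPKM + 1) over all 20810 genes with a value above 0 in any library and adjusted over all of them. Differences are SP minus MP on this scale, on which low genes show smaller changes than in FPKM, and a gene fell or rose if its adjusted p was under 0.05. Of 33 tested members 16 fell in SP, none rose and 17 did not pass. No member was higher in SP at an unadjusted limma p under 0.05 either. Over all tested genes 9.95% fell and 8.82% rose. Because the members were chosen with earlier results of these data known, setting them beside these shares is description only. The median difference was −0.75 over the members and −0.02 over all tested genes. In 22 members all SP values lay below all MP values, which held for 20.5% of all tested genes. An exact permutation test of 1 gene, two-sided and with 3 libraries a side, has a smallest possible p of 0.1. Any gene with such separation must reach it, so the test adds nothing for these 22. In bulk RNA, fewer cells of a type and less RNA per cell cannot be told apart.

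CD3E, CD4, CD8A, CD8B, GZMB, NKG7 and CD79A fell in every alternative analysis that tested them. The count of members that fell dropped to 7, 8 and 8 without SP replicates 1, 2 and 3, and stood at 13, 13 and 17 without MP replicates 1, 2 and 3. With a filter of at least 1 FPKM in at least 3 libraries, only 11 members were tested and 10 fell, where 18.7% of all genes fell. These were 9 of the 16 and MZB1, which did not pass without the filter. Of those 11 members 8 were under 1 FPKM in every SP library, so that the filter fixed their direction.

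**Figure D3:**
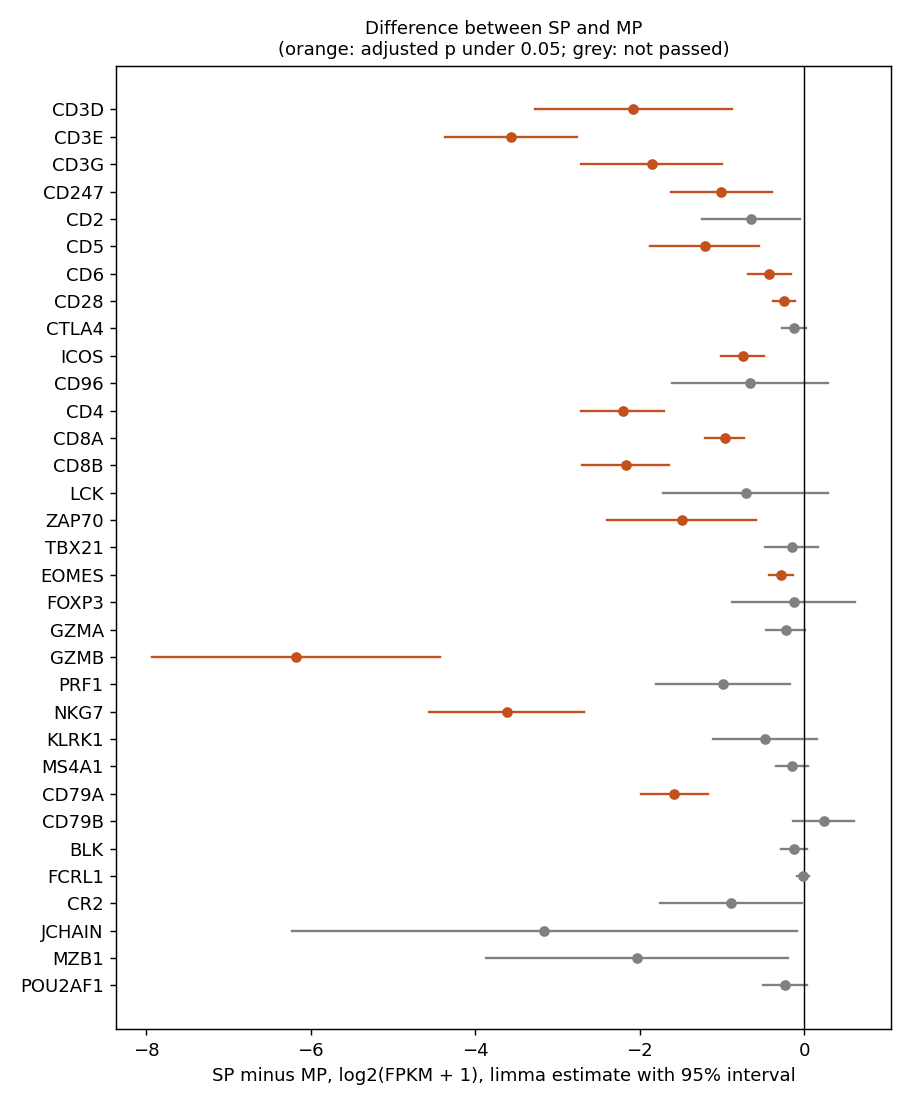
Difference between SP and MP for the 33 tested lymphocyte genes, in log2(FPKM + 1) as estimated by limma, with the 95% interval as a bar. Orange genes passed an adjusted p of 0.05 and grey ones did not; all 16 orange genes lie left of 0, and CD79B alone lies to the right.

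All 4 genes of the CD3 complex, the signalling part of the T cell receptor, fell. CD3E (chromosome 15, 29004554 to 29015196 in build ARS-UCD1.2) had 0.0682, 0.0425 and 0.261 FPKM in the SP libraries, in the order of replicates 1 to 3, and 8.78, 19.5 and 10.7 FPKM in the MP libraries, in the same order as throughout. Every MP library was above every SP library, and MP replicate 2 was the highest. The difference was −3.57 ± 0.33 (SE; limma adjusted p = 0.00672).

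CD3D and CD3G lie beside CD3E on chromosome 15, at 29019453 to 29023621 and 29025582 to 29037075. CD3D was at 0, 0.216 and 0.190 FPKM in SP and at 2.52, 9.52 and 1.94 FPKM in MP. CD3G was at 0, 0.0993 and 0.0870 FPKM in SP and at 2.13, 5.65 and 1.71 FPKM in MP. Both were listed at 0 in SP replicate 1, the shallowest library, and highest in MP replicate 2, as was CD3E. Their differences were −2.08 ± 0.49 and −1.85 ± 0.35 (SE; limma adjusted p = 0.0368 and 0.0222). The call of CD3D was lost without any SP library or without MP replicate 1 (limma adjusted p = 0.118, 0.0925, 0.0933 and 0.0614), and that of CD3G without any SP library (0.0807, 0.0664 and 0.0663).

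CD247, the zeta chain, which NK cells use as well, was the CD3 complex member with the most signal in SP. It stood at 0.487, 1.14 and 1.12 FPKM in SP and at 2.38, 3.58 and 2.59 FPKM in MP, a difference of −1.01 ± 0.25 (SE; limma adjusted p = 0.0415). Its groups lay apart but close, and without any 1 of the 6 libraries the call was lost (limma adjusted p from 0.0590 to 0.124). It was lost as well with FPKM rescaled to a common sum (0.0884).

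All 3 coreceptor genes fell, and each was at a like level in the 3 MP libraries. CD4 (chromosome 5, 103631358 to 103654819), which marks helper T cells and is also made by macrophages, was at 0.0273, 0.137 and 0.120 FPKM in SP and at 4.25, 4.94 and 3.15 FPKM in MP. Its difference was −2.21 ± 0.21 (SE; limma adjusted p = 0.00696). Of 14 macrophage and dendritic cell markers 10 fell as well, while CD14, CD68 and CD74 overlapped between the populations. CSF1R, the receptor for macrophage growth factor, was at 0.0208 to 0.0916 FPKM in SP and 5.68 to 9.23 FPKM in MP, and their part in the CD4 values was not tested.

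CD8B (chromosome 11, 48044725 to 48064468), the beta chain of the CD8 coreceptor of cytotoxic T cells, was listed at 0 throughout SP, against 2.99, 2.87 and 4.93 FPKM in MP (limma adjusted p = 0.00738). CD8A, the alpha chain, was at 0, 0 and 0.0229 FPKM in SP and at 1.17, 0.802 and 0.966 FPKM in MP, a difference of −0.97 ± 0.10 (SE; limma adjusted p = 0.00733). The beta chain was the higher of the pair in every MP library, by 2.56, 3.58 and 5.10 times in FPKM, which is per length. CD4 in turn exceeded CD8A by 3.64, 6.16 and 3.26 times.

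Of the proximal kinases, ZAP70 fell and LCK did not pass. ZAP70, which binds the phosphorylated CD3 and zeta chains, was at 0, 0.162 and 0.245 FPKM in SP and at 2.95, 3.59 and 0.771 FPKM in MP. Its difference was −1.49 ± 0.37 (SE; limma adjusted p = 0.0419). The call was lost without any library other than MP replicate 3 (limma adjusted p from 0.0891 to 0.132), with differences still from −1.23 to −1.56. LCK, which phosphorylates those chains, was at 0.240, 0.226 and 0.286 FPKM in SP and at 0.356, 3.08 and 0.564 FPKM in MP. Its SP values were nearly level and MP replicate 2 stood far above the others, giving −0.72 with a 95% interval from −1.72 to 0.29 (limma adjusted p = 0.270).

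Of 7 adhesion and costimulatory receptors 4 fell, and all 7 were low in both populations. CD5, which dampens receptor signalling, was at 0.0853, 0.0267 and 0.0935 FPKM in SP and at 0.989, 2.84 and 0.985 FPKM in MP and fell by 1.21 ± 0.27 (SE; limma adjusted p = 0.0325). ICOS, an inducible costimulator, was listed at 0 in SP replicates 1 and 3, was at 0.0198 FPKM in SP replicate 2, and was at 0.531, 0.976 and 0.605 FPKM in MP (difference −0.75 ± 0.11 SE; limma adjusted p = 0.0123). CD6, a relative of CD5, and CD28, the main costimulatory receptor, fell as well but never exceeded 0.616 FPKM, with limma adjusted p of 0.0439 and 0.0338. ICOS lost its call only without SP replicate 1 among the libraries (0.0545). CD5 lost it without any SP library (0.101, 0.0946 and 0.0876), CD6 without any SP library or MP replicate 2 (0.0722 to 0.119), and CD28 without any library other than MP replicate 2 (0.0611 to 0.110).

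CD2, CD96 and CTLA4 did not pass. CD2, an adhesion receptor of T and NK cells, was at 0.0566, 0 and 0.0929 FPKM in SP and at 0.479, 1.44 and 0.236 FPKM in MP (limma adjusted p = 0.115), with no overlap. CD96, a receptor of NK and T cells whose listed locus it shares with ZBED2, was at 0.141, 2.1 and 0.144 FPKM in MP and at most 0.0263 FPKM in SP (limma adjusted p = 0.281). CTLA4, an inhibitory receptor, was listed at 0 in all SP libraries and in MP replicate 3, and was at 0.119 and 0.158 FPKM in MP replicates 1 and 2. Without MP replicate 3, CD2 and CTLA4 passed, lower in SP (limma adjusted p = 0.0493 and 0.0333).

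Of 3 transcription factors of T and NK lineages 1 fell, and the groups overlapped in the other two. EOMES, which directs cytotoxic and NK differentiation, was at 0.0489, 0.0998 and 0 FPKM in SP and at 0.327, 0.270 and 0.234 FPKM in MP, and fell by 0.28 ± 0.06 (SE; limma adjusted p = 0.0256). The call was lost without any library other than MP replicate 3 (limma adjusted p from 0.0553 to 0.0884). TBX21, its relative in type 1 immunity, was at 0.0895, 0.0561 and 0.197 FPKM in SP and at 0.129, 0.517 and 0.105 FPKM in MP, so the groups overlapped (limma adjusted p = 0.460).

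FOXP3, the regulator of suppressive T cells, showed no common direction. It was at 0.0535, 0.204 and 1.19 FPKM in SP and at 0.969, 0.329 and 0.383 FPKM in MP, and SP replicate 3 held the highest value of all 6 libraries. The difference was −0.13 with a 95% interval from −0.88 to 0.62 (limma adjusted p = 0.785), and it turned positive without SP replicate 1, without MP replicate 1 and with quantile normalization. Its listed locus (chromosome X, 87274478 to 87324338) also holds CCDC22, PPP1R3F and an uncharacterised gene. CCDC22 was at 4.90 to 7.65 FPKM in SP and 4.29 to 5.30 FPKM in MP. Whether reads of these genes were told apart in counting was not tested.

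Of 5 cytotoxic genes 2 fell, NKG7 and the row listed as GZMB. NKG7 (chromosome 18, 57439878 to 57442652), a granule membrane protein of NK and cytotoxic T cells, was at 0.357, 0.0889 and 0.127 FPKM in SP and at 7.49, 21.1 and 15.5 FPKM in MP. It fell by 3.62 ± 0.39 (SE; limma adjusted p = 0.00810). PRF1, the pore-forming perforin, was at 0.102, 0 and 0.0384 FPKM in SP and at 0.271, 2.37 and 1.09 FPKM in MP. Its groups did not overlap, but it did not pass (difference −0.99 ± 0.34 SE; limma adjusted p = 0.0900) except without MP replicate 1 (0.0310) or with a pseudocount of 0.1 FPKM (0.0390).

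GZMA, granzyme A, and KLRK1, the activating receptor NKG2D, were listed at 0 in the 3 SP libraries and in MP replicate 3. In MP replicates 1 and 2 GZMA was at 0.243 and 0.284 FPKM and KLRK1 at 0.280 and 1.13 FPKM. Neither passed (limma adjusted p = 0.157 and 0.243). Without MP replicate 3, GZMA passed, lower in SP (0.0133), and KLRK1 did not (0.0699).

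GZMB, granzyme B by its symbol, had the largest difference of the set and a level unlike that of the other cytotoxic genes. Its level was 0, 0.268 and 3.00 FPKM in SP and 52.2, 162 and 223 FPKM in MP, a difference of −6.18 ± 0.72 (SE; limma adjusted p = 0.00914). In MP it exceeded NKG7 by 6.98, 7.67 and 14.4 times, and it was highest in MP replicate 3. There GZMA was at 0, and NKG7, CD3E and PRF1 were below their values in MP replicate 2. CD8B was also highest in MP replicate 3, at 4.93 FPKM. It and GZMB were the only 2 of the 24 T and NK cell genes to be highest there.

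The listed GZMB locus (chromosome 21, 34741243 to 34743324) lies among other unnamed entries, and the RefSeq gene table of assembly ARS-UCD2.0 gives BDMD1 and CTLA1 as its synonyms. Whether the row is the counterpart of granzyme B of other species or another protease of the locus was not tested, and it stands among the cytotoxic genes by its symbol alone. Of 4 other entries within 25 kb, looked up after the values were seen, LOC100139881 alone had high values, and the other 3 did not exceed 1.43 FPKM. LOC100139881 lies 10594 bp away and was at 0.230, 0.764 and 2.13 FPKM in SP and at 48.7, 205 and 264 FPKM in MP (difference −6.20 ± 0.69 SE; limma adjusted p = 0.00860). It thus stood at 0.933, 1.27 and 1.18 times GZMB in MP replicates 1 to 3. How alike their sequences are was not tested. If they share reads, the split between them is uncertain.

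Most mast cell transcripts were also high in MP and low in SP. TPSB2, a mast cell tryptase, was at 1.13, 0.751 and 7.24 FPKM in SP and at 322, 522 and 861 FPKM in MP. CPA3, mast cell carboxypeptidase A3, was at 0.117, 0.271 and 1.49 FPKM in SP and at 59.6, 76.8 and 76.4 FPKM in MP. Over the list of 7 mast cell markers the summed level was 14.9 to 34 FPKM in SP and 408 to 986 FPKM in MP, 5 of 7 fell, and the defining marker MS4A2 was at 0 in SP replicates 1 and 2. KIT, a growth factor receptor that other cells share, made up most of the SP sum, at 13.5 to 32.3 FPKM. It lay the other way, at 7.66 to 20.3 FPKM in MP, with overlapping groups and a difference of 0.84 that did not pass (limma adjusted p = 0.243). TPSB2 and KIT, like GZMB, were highest in MP replicate 3. That library held the highest value for 31.8% of all genes above 0 in MP. Of the other mast cell markers, 4 were highest in MP replicate 2 and 1 in MP replicate 1. CPA3 was nearly level in MP replicates 2 and 3. The part of mast cells in the GZMB values was not tested.

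**Figure D4:**
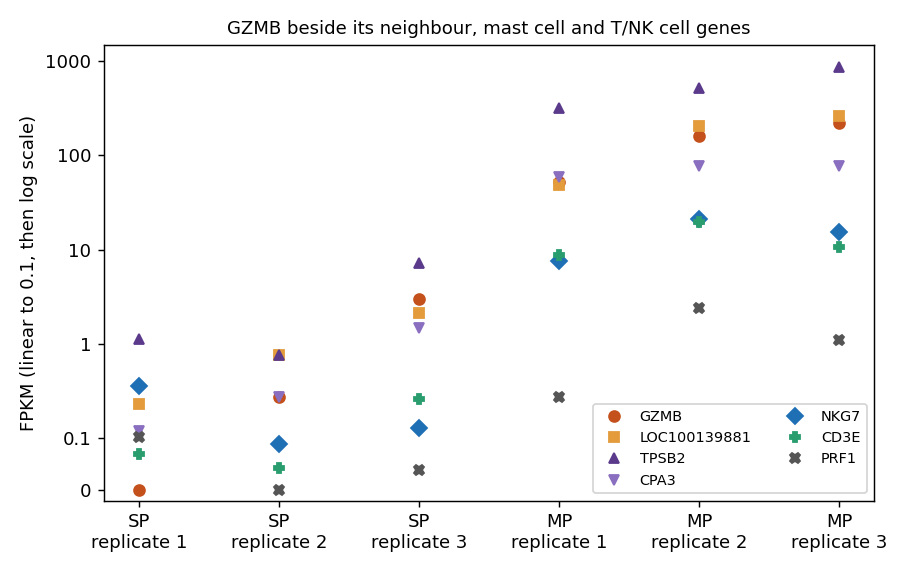
FPKM of GZMB, its neighbour LOC100139881, the mast cell genes TPSB2 and CPA3, and the T and NK cell genes NKG7, CD3E and PRF1 in each library; the axis is linear up to 0.1 FPKM and logarithmic above. GZMB and its neighbour lie together in the MP libraries, between TPSB2 above and NKG7 and CD3E below.

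Of 6 tested B cell genes 1 fell. CD79A, a signalling chain of the B cell receptor, was at 0.331, 0.109 and 0.238 FPKM in SP and at 2.40, 2.67 and 2.91 FPKM in MP. The MP values lay within a narrow range, and the difference was −1.58 ± 0.17 (SE; limma adjusted p = 0.00801). Its listed locus (chromosome 18, 51323353 to 51348579) is shared with ARHGEF1, which went the other way without passing, at 9.01 to 16.1 FPKM in SP and 5.45 to 6.91 FPKM in MP.

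CD79B, the partner chain of CD79A in the receptor, did not follow it. It was at 0.479, 0.170 and 0.299 FPKM in SP, and in MP it was listed at 0 in replicates 1 and 2 and was at 0.376 FPKM in replicate 3. The groups overlapped, and the difference of 0.24 with a 95% interval from −0.14 to 0.61 did not pass (limma adjusted p = 0.325). It was the only member with a positive difference.

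The other B cell genes are lineage markers. MS4A1, which encodes CD20, was at 0.244, 0.0893 and 0 FPKM in MP, and BLK, a B cell kinase, at 0.175, 0 and 0.123 FPKM. FCRL1, a B cell surface receptor, was seen only in MP replicate 2, at 0.0335 FPKM. CR2, the complement receptor of B cells and follicular dendritic cells, was the highest of these, at 0.519, 2.39 and 0.279 FPKM in MP and at 0.0227, 0 and 0.0125 FPKM in SP. None of these 4 passed (limma adjusted p from 0.131 to 0.731), although CR2 passed without MP replicate 2 (0.0401) and with a pseudocount of 0.1 FPKM (0.0336).

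None of the 3 plasma cell genes passed. JCHAIN (chromosome 6, 86032997 to 86042394), the joining chain of secreted IgA and IgM, was at 0.221, 2.16 and 3.66 FPKM in SP and at 18.7, 3.50 and 144 FPKM in MP. SP replicate 3 lay above MP replicate 2, and the difference of −3.16 ± 1.26 did not pass (SE; limma adjusted p = 0.132). MZB1 (chromosome 7, 50661347 to 50663428), a chaperone of antibody assembly, was at 0.477, 0.148 and 0.776 FPKM in SP and at 3.15, 1.51 and 18.7 FPKM in MP. Its groups lay apart, with −2.03 ± 0.76 (SE; limma adjusted p = 0.111). MZB1 passed only with the filter on low values (0.0471). It met that filter through the MP libraries alone, so its direction there was fixed beforehand. POU2AF1, a coactivator of antibody genes, was listed at 0 in SP and MP replicate 1 and was at 0.207 and 0.362 FPKM in MP replicates 2 and 3. It passed without MP replicate 1 (limma adjusted p = 0.0388), against 0.177 over all libraries.

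The MP libraries differed in which lymphocyte genes were high. Of the 24 T and NK cell genes, 17 had their highest MP value in replicate 2, against 5 in replicate 1 and 2 in replicate 3, while replicate 2 held the highest value for 32.9% of all genes above 0 in MP. The 3 plasma cell genes had theirs in MP replicate 3, the highest for 31.8% of all genes above 0 in MP. POU2AF1 was at only 0.362 FPKM there. Among T and NK cell genes above 0 in all 3 MP libraries, CD96, LCK, TBX21 and CD3D stood highest in MP replicate 2, at 14.8, 6.69, 4.42 and 4.27 times the mean of the other MP libraries. The B cell gene CR2 was there at 6.0 times that mean. JCHAIN and MZB1 in MP replicate 3 were 13.0 and 8.0 times that mean. These are descriptions of single libraries with no test. PTPRC, the pan-leukocyte protein CD45, was also highest in MP replicate 2, at 2.01, 5.83 and 1.28 FPKM in MP replicates 1 to 3, and so was the summed level of 9 epithelial markers, at 977, 4613 and 1228 FPKM. MP replicate 2 was the deepest library.

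**Figure D5:**
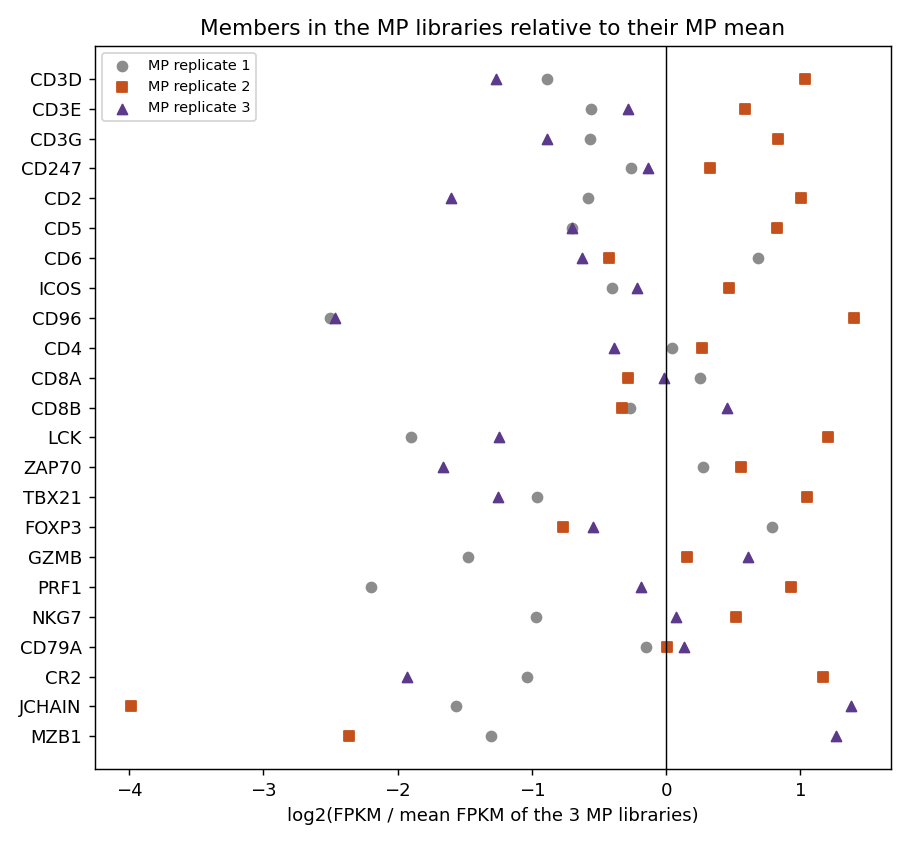
Level of each lymphocyte gene in the 3 MP libraries relative to its own MP mean, on a log2 axis, for genes above 0 in all 3 and reaching 0.5 FPKM in at least 1. Orange squares (replicate 2) lie to the right for most T and NK cell genes, and purple triangles (replicate 3) for JCHAIN and MZB1.

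Other genes of lymphocytes were taken from lists that were also chosen with earlier results of these data known. The lists held 117 genes, of which 112 were in the files and 104 could be tested. Of these 27 fell (25.96%), 6 rose (5.77%) and 71 did not pass, where 9.95% of all tested genes fell and 8.82% rose. Without SP replicates 1, 2 and 3 the number that fell was 13, 15 and 14, and without SP replicate 1, SP replicate 2 or MP replicate 2 the number that rose was 1, 2 and 2. Of 11 broad leukocyte genes 10 fell and IL2RG did not pass. CD37, a membrane protein of lymphocytes, was at 0, 0.0458 and 0.0764 FPKM in SP and at 22.1, 34.7 and 29.7 FPKM in MP (difference −4.82 ± 0.24 SE; limma adjusted p = 0.00169). CD52 and CD48, surface proteins of leukocytes, had differences of −5.45 and −3.36.

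Of 24 tested genes of T cell receptor signalling 3 fell (12.5%), a share near that of all tested genes, and none rose. Among them were LCP2 and LAT, an adaptor pair downstream of ZAP70, with differences of −1.07 and −1.52 (limma adjusted p = 0.0307 and 0.0309). Both lost the call without any 1 of the SP libraries (limma adjusted p from 0.0683 to 0.105), LCP2 also without MP replicate 1 (0.0532), and LAT without MP replicate 2 (0.0661). Of 14 T cell transcription factors 3 fell and 3 rose. TOX, RUNX3 and IKZF3 were those that fell, and each lost its call without any 1 of the SP libraries (limma adjusted p from 0.0651 to 0.119). RUNX3 and IKZF3 also lost it without MP replicate 1 (0.0815 and 0.0820), and IKZF3 without MP replicate 2 (0.0548). Of 23 genes of NK and cytotoxic cells 5 fell and 1 rose. TYROBP, an adaptor of NK and myeloid cells that also stands in the macrophage list, FCGR3A, the antibody receptor CD16, and CTSW, a protease of cytotoxic cells, had differences of −5.54, −2.69 and −4.32. CTSW was at 0, 0 and 0.218 FPKM in SP and at 7.78, 57.6 and 17.7 FPKM in MP (limma adjusted p = 0.0145), and lost its call without SP replicate 1 (0.0562).

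Of 18 B cell genes 5 fell and 1 rose. BTK, a kinase of B and myeloid cells, and CD72 had differences of −1.57 and −1.62, and CD22, an inhibitory receptor of B cells, was listed at 0 in SP and at 0.929, 0.541 and 0.988 FPKM in MP (limma adjusted p = 0.0108). CD72 lost its call without SP replicate 1 (limma adjusted p = 0.0530). Of 10 plasma cell genes 1 fell, also near the share of all tested genes. It was SLAMF7, lower by 3.03 ± 0.23 (SE; limma adjusted p = 0.00585). Of 4 tested genes of gamma delta T cells, CD163L1, WC1.3 and ZBTB16 did not pass and SOX13 rose.

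The 6 that rose in SP were the transcription factors GATA3, TCF7, PRDM1, SOX13 and EBF1 and the death ligand TNFSF10. Other cell types use such genes too, as they do TYROBP and BTK among those that fell. GATA3 was at 17.9, 9.32 and 10.3 FPKM in SP and at 0.824, 0.440 and 1.96 FPKM in MP (difference 2.72 ± 0.38 SE; limma adjusted p = 0.0117). PRDM1, which drives plasma cell differentiation and is also made by other cells, was at 240, 279 and 136 FPKM in SP and at 25.9, 22.5 and 64.2 FPKM in MP (limma adjusted p = 0.0192). Endothelial markers were high in the same SP libraries, at 104 to 145 FPKM for the median marker, and their part was not tested. GATA3 passed in every alternative. Without SP replicate 1 the other 5 lost the call (limma adjusted p from 0.0705 to 0.0839). TCF7 also lost it without SP replicate 3, TNFSF10 without SP replicate 2 or MP replicate 2, and PRDM1 without SP replicate 2 or MP replicate 1 or 2. SOX13 lost it without SP replicate 2 or 3 or MP replicate 2, and EBF1 without any library other than MP replicate 3.

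Of 14 macrophage and dendritic cell markers 10 fell and none rose. Their summed level was 2241 to 4109 FPKM in SP and 2496 to 5855 FPKM in MP, most of it CD74, which is not confined to myeloid cells. Of the defining markers CSF1R was under 0.1 FPKM in every SP library, and AIF1 was at 0 in SP replicate 1. CD14 was at 105, 101 and 86.9 FPKM in SP and at 38.9, 48.8 and 104 FPKM in MP, a difference of 0.73 that did not pass (limma adjusted p = 0.210). CD68 was at 15.7 to 34.3 FPKM in SP and 21.0 to 47.5 FPKM in MP, and did not pass either. Their part in the lymphocyte values was not tested. Of 6 red cell markers 4 were at 0 in every library, ALAS2 was above 0 in SP replicate 1 alone, at 0.0486 FPKM, and HBA did not exceed 0.584 FPKM.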

How the data were processed

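Total RNA of sorted SP and MP cells was sequenced from stranded mRNA libraries, 3 of each. Per the submitters' processing notes, cutadapt 2.5, HISAT2 2.1.0 and build ARS-UCD1.2 were used. The deposited values are FPKM per gene, per the file headers. Not given in the sources used here are the FPKM tool, the annotation and the use of strand. Counts were not used, so the depth is known only in relative terms, from the step between the lowest values.

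A row pooling 662 symbols was left out (0.185% to 1.91% of a library's sum). Listed starts appear to count from 0, so 1 was added: of 9769 genes with the same end in the gene table, 5450 then had the same start, against 40 as listed. All members matched the ARS-UCD2.0 gene table by symbol, which was used for chromosome names and synonyms. limma 3.58.1 in R 4.3.3 was fitted to log2(FPKM + 1), with a trend, two-sided, over all genes above 0 in any library, with Benjamini-Hochberg adjustment. The procedure was tested on simulated data. All 34 members are named, and of each related list up to 3 called genes by smallest p. The names TOX, RUNX3, IKZF3, SOX13, EBF1, TNFSF10, PTPRC and the GZMB neighbours were added with their values known. Members and lists were chosen with earlier results of these data known. Alternatives changed the filter, the pseudocount (0.1 and 5 FPKM), the scaling, the trend, the replicate block and the libraries used. Promoter and protein sequences were not analysed here. The values of 1 gene of the related lists are not reported here.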

Additional observations from a re-analysis of the deposited data

Results flagged for a closer look

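A row outside the comparisons held signal in MP above that in SP. It carries no gene identifier and pools 662 symbols, among them the immunoglobulin heavy chain genes IGHM, IGHG1, IGHE and IGCGAMMA along with many others. Its level in replicates 1 to 3 was 1608.98, 1724.67 and 2256.83 FPKM for SP and 11368.9, 6460.6 and 18735 FPKM for MP. All MP values lay above all SP values, and MP replicate 3, where JCHAIN and MZB1 were highest, held the highest. How much of the row comes from the immunoglobulin genes was not tested.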

How the results depend on the processing

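Against 16 members that fell in SP, 10 fell with a filter of at least 1 FPKM in at least 3 libraries, which tested 11 members. Of these 10, 9 were among the 16 and MZB1 was not. Of the 11 tested, 8 were under 1 FPKM in every SP library, MZB1 among them, so the filter fixed their direction. Leaving out each library in turn gave 7 to 17 members that fell, 13 to 33 related genes that fell and 1 to 7 that rose. Pseudocounts of 0.1 and 5 FPKM gave 18 and 11 members that fell, the scalings 12 to 15 and a fit without a trend 12. No member rose in any alternative run. The difference of FOXP3 turned positive with quantile normalization (0.0123), and without single libraries it ranged from −0.4471 (without SP replicate 3) to 0.07907 (without SP replicate 1), also positive without MP replicate 1 (0.05103). No other member changed direction, and the cause of these changes was not tested.

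With the replicate block 9 members fell, 19 related genes fell and 1 rose. The column headers share a number across the populations, but what it marks is not given. The same-numbered libraries correlated in their deviations from the group means over 11863 genes at 0.10, 0.50 and −0.07, so the numbers were not taken to pair the libraries. Only 1 of the 3 SP libraries correlated best with its own number.

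The SP libraries were the shallower, and values listed at 0 there do not show absence.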
